A study of Arabidopsis thaliana with 9 samples.

Results

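Transcripts of 10 Arabidopsis genes that bind, move or store iron were followed in seedlings of 3 genotypes: 4 nicotianamine synthases (NAS1, NAS2, NAS3, NAS4), 3 YELLOW STRIPE-LIKE transporters (YSL1, YSL2, YSL3) and 3 ferritins (FER1, FER3, FER4). They were taken by locus from a table of 29420 genes, and were listed with the results of these same libraries known. Their fold changes, calls and counts are therefore a description and carry no test. The groups were the pwr-2 mutant, which carries a mutation in POWERDRESS (PWR, a SANT-domain protein), the hda9-1 mutant, in which the gene of the histone deacetylase HDA9 is mutated, and wild type (WT). All were of the Col ecotype, 10 days old and grown on MS agar in long days, and each group had 3 biological replicates. Each mutant was represented by 1 allele, whose kind of lesion is not given in the sources used here. Because the series title names PWR and HDA9 as partners in removing acetyl groups from histone H3, the comparisons concern how each mutant differed from WT and whether the mutants differed from each other.

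Nicotianamine is a small chelator that plants make from S-adenosylmethionine and that keeps iron, zinc and copper soluble inside cells and in the phloem. YSL transporters carry metals bound to nicotianamine across membranes, mostly in the veins, and with it supply young leaves, flowers and seeds. Ferritins form hollow protein shells in plastids that store iron and keep it from reacting with oxygen, and FER1 transcripts are known to rise when iron is plentiful.

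The 9 libraries held 6450661 to 11150773 counts, and 20171 genes entered the test. In each library the gene with the most counts held 0.0704% to 0.0901% of them, and whether the counts of abundant genes were reduced before deposit is not given in the sources used here, so levels of different genes are as deposited. A floor of 3 counts corresponded to 0.269 to 0.465 CPM, which are counts scaled to a common library size. The smallest library was hda9-1 replicate 3, which also had the most counts on annotated ribosomal RNA genes, 251 CPM, where the remaining libraries had between 35.4 and 102 CPM. HDA9 averaged 32.6 ± 2.68 CPM in pwr-2, 7.04 ± 0.435 CPM in hda9-1 and 38 ± 1.42 CPM in WT, and PWR averaged 48.7 ± 7.41 CPM in pwr-2, 191 ± 5.52 CPM in hda9-1 and 141 ± 6.83 CPM in WT (SD, n = 3 each). Each mutated gene was thus lowest in its own mutant. Whole seedlings were sampled, so that fewer cells of a type and less RNA per cell cannot be told apart.

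The 4 synthase genes had a single exon each and lay at chr5:1457641-1459039 (NAS1, AT5G04950), chr5:22711141-22712441 (NAS2, AT5G56080), chr1:2984829-2986231 (NAS3, AT1G09240) and chr1:21136835-21138277 (NAS4, AT1G56430) of the RefSeq annotation of TAIR10.1. The transporters lay at chr4:12524186-12527347 (YSL1, AT4G24120), chr5:8323895-8326705 (YSL2, AT5G24380) and chr5:21755251-21758950 (YSL3, AT5G53550). The ferritins, of 8 exons each, lay at chr5:227953-230051 (FER1, AT5G01600), chr3:20813904-20816035 (FER3, AT3G56090) and chr2:16831109-16833294 (FER4, AT2G40300). Within the families, the closest coding sequences were those of NAS1 and NAS2 (83.8% identical bases), NAS3 and NAS4 (80.1%) and FER3 and FER4 (79.3%). No stretch of 50 bases of the NAS transcripts, YSL1, YSL3, FER1 or FER3 occurred in a transcript of another gene, so reads of at least that length would separate these relatives. YSL2 shared 2.15% of its 50-base stretches with its neighbour AT5G24390 and FER4 shared 5.74% with AT2G40290, and neither neighbour was called in any comparison.

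The 250 bases before the annotated start of 9 of the genes were searched on both strands for the G-box CACGTG (bound by bHLH and bZIP factors), the P1BS element GNATATNC (bound by the phosphate regulator PHR1) and TGTCGACA (the core bound by the zinc regulators bZIP19 and bZIP23). The windows of FER3 and FER1 are shown because FER3 was the 1 of the 9 genes with a G-box, and FER1 is the ferritin set beside it. Capitals mark it.
FER3, chr3:20816036-20816285, minus strand: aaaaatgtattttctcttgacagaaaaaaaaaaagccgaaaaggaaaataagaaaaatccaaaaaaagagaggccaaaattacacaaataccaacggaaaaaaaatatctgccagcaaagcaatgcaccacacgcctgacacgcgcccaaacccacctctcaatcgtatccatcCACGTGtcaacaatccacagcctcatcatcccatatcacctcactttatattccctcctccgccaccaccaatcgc
FER1, chr5:230052-230301, minus strand: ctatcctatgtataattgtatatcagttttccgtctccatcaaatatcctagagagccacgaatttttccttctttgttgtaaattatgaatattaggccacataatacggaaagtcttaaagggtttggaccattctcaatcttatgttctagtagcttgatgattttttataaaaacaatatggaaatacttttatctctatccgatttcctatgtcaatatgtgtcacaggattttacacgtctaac
The G-box lay 76 to 71 bases before the start of FER3, and 6.58% of 26709 annotated promoters of this length held one. FER1 held none of the searched motifs in this window. A P1BS match lay in YSL3 (93 to 86 bases before the start) and in no other of the 9 windows, with 5.44% of promoters holding one, and the zinc core was in none of the 9 and in 0.27% of promoters. NAS3 and YSL1 are shown because they were the 2 genes called between the mutants, and their windows held none of the motifs.
NAS3, chr1:2984579-2984828, plus strand: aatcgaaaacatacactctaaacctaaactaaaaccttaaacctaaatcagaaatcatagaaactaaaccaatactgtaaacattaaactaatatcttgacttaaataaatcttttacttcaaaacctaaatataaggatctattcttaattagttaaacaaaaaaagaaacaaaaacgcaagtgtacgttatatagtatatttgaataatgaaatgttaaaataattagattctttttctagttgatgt
YSL1, chr4:12523936-12524185, plus strand: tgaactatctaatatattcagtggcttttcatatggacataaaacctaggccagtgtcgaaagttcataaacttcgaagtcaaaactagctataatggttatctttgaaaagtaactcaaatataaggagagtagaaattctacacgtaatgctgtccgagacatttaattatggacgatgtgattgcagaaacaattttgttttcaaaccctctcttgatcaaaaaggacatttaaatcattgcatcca

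A gene was called changed at a genome-wide adjusted p under 0.05 in edgeR's quasi-likelihood test. In hda9-1 against WT, 7 of the 9 genes that entered the test were called lower and the other 2, YSL2 and YSL3, were not called, while 34.2% of all tested genes were called in either direction and 16.6% were called lower. The 7 were NAS1, NAS3, NAS4, YSL1 and the 3 ferritins. In pwr-2 against WT, 4 of 9 were called lower (NAS1, NAS4, FER3 and FER4) and 1 higher (YSL2), with 31.4% of all tested genes called, 15.3% lower and 16% higher. Between the mutants, NAS3 and YSL1 were called higher in pwr-2 than in hda9-1, and 0.421% of all tested genes were called, 0.312% higher. The median log2 fold change of the 9 genes was -0.19 in pwr-2, where that of all tested genes was -0.01, and -0.62 in hda9-1, where that of all tested genes was 0. Both mutants were compared with the same 3 WT libraries. Of all calls, 51.1% were higher in pwr-2 and 51.6% in hda9-1, while with upper-quartile factors it was 32.6% in pwr-2 and 32.9% in hda9-1. Without replicate 3 of hda9-1 the same ones of the 9 genes were called in all 3 comparisons.

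**Figure D1:**
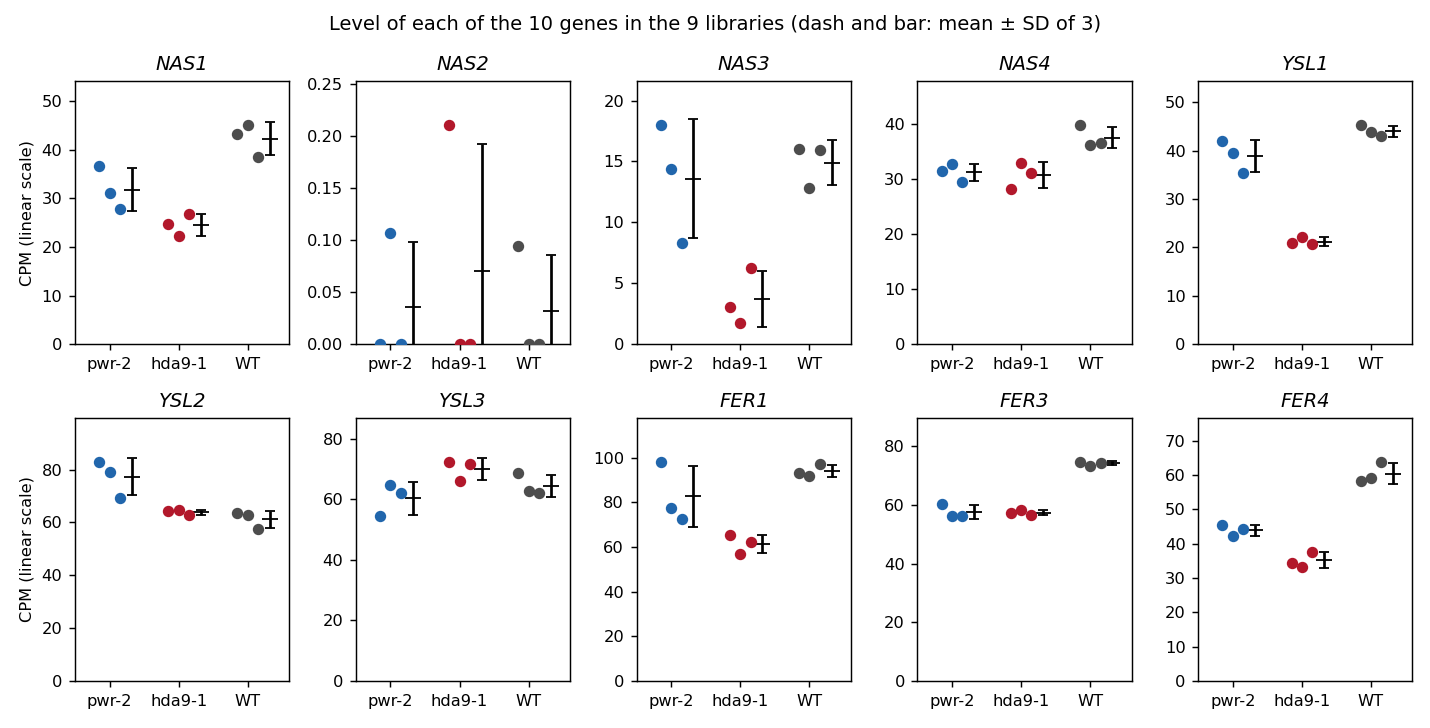
CPM on a linear axis (vertical, starting at 0 with its own range in each panel) of the 10 genes in each library, grouped by genotype. Each point is 1 library and the dash with its bar is the mean ± SD of 3. YSL1 sits well below the other groups in hda9-1, and YSL2 is highest in pwr-2. NAS3 is lowest in hda9-1, where its highest library (6.23 CPM) comes near the lowest pwr-2 library (8.31 CPM).

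NAS3, a synthase known from leaves, had the largest fold change of the 9 genes in hda9-1. It had 18, 14.4 and 8.31 CPM in pwr-2, 3.05, 1.77 and 6.23 CPM in hda9-1, and 16, 12.8 and 15.9 CPM in WT. All 3 hda9-1 libraries lay below all WT and all pwr-2 libraries, and the pwr-2 and WT libraries overlapped. The counts behind the hda9-1 values were 29, 16 and 38, so that NAS3 was the least deeply counted of the 9 genes there. Its log2 fold change was -2.11 (SE 0.35) in hda9-1 against WT, called lower, and -0.14 (SE 0.29) in pwr-2 against WT, not called. Without replicate 3 of hda9-1, the library with the high ribosomal RNA share and also the highest NAS3 value of its group, the hda9-1 value was -2.61, and without replicate 2 it was -1.76. Of all 20171 tested genes, 0.431% had a lower log2 fold change in hda9-1. Between the mutants NAS3 was 1.97 higher in pwr-2 on the log2 scale (SE 0.36), and this call ended when either of replicates 1 and 2 of hda9-1, either of replicates 1 and 2 of pwr-2, or replicate 2 of WT was left out, with values of 1.88, 1.62, 1.72, 1.92 and 1.97 in that order.

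NAS1, the synthase with the highest mean level per kb in WT, had 36.6, 31.1 and 27.8 CPM in pwr-2, 24.7, 22.2 and 26.7 CPM in hda9-1, and 43.2, 45.1 and 38.6 CPM in WT. Every mutant library lay below every WT library, and every hda9-1 library lay below every pwr-2 library. The log2 fold change was -0.42 (SE 0.10) in pwr-2 and -0.80 (SE 0.10) in hda9-1, both called lower. The difference of 0.38 (SE 0.11) between pwr-2 and hda9-1 was not called.

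NAS4 had 31.5, 32.7 and 29.6 CPM in pwr-2, 28.3, 32.9 and 31.1 CPM in hda9-1, and 39.9, 36.3 and 36.6 CPM in WT. The mutant groups overlapped each other and lay below WT. Its log2 fold change was -0.27 (SE 0.07) in pwr-2 and -0.29 (SE 0.07) in hda9-1, both called lower. The pwr-2 call ended under DESeq2 (-0.27), with loess offsets (-0.21), without replicate 3 of pwr-2 (-0.23) and without replicate 1 of WT (-0.22). NAS2, a synthase known from roots, had 0, 1 and 0 counts in pwr-2, 2, 0 and 0 in hda9-1, and 1, 0 and 0 in WT. All were under the floor of 3 counts and NAS2 did not enter the test.

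The 4 synthases together had 76.7 ± 10.3 CPM in pwr-2, 59.1 ± 4.32 CPM in hda9-1 and 94.9 ± 4.06 CPM in WT (sum of CPM, not scaled by length; SD, n = 3). That was 80.8% of the WT sum in pwr-2 and 62.3% in hda9-1. Their mix differed from WT in hda9-1, where the shares of NAS3 and NAS4 did not overlap those of WT. In pwr-2 the shares of both genes overlapped those of WT. NAS3 made up 17.5 ± 4.25% of the synthase level per kb of exon in pwr-2, 6.16 ± 3.39% in hda9-1 and 15.9 ± 2.01% in WT. The NAS4 share was 40.4 ± 4.22% in pwr-2, 51.5 ± 4.95% in hda9-1 and 38.9 ± 0.949% in WT.

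YSL1, which acts with YSL3 in loading iron into seeds and remobilising it from leaves, had 41.9, 39.4 and 35.4 CPM in pwr-2, 20.9, 22.2 and 20.7 CPM in hda9-1, and 45.3, 43.8 and 43.1 CPM in WT. The 3 groups did not overlap, and the hda9-1 libraries were tightly together at the bottom. YSL1 averaged 51.8% lower in hda9-1 than in WT, a log2 fold change of -1.05 (SE 0.07), called lower. In pwr-2 it was -0.18 (SE 0.07) against WT and not called, although all 3 libraries were below WT. It was called there with upper-quartile factors (-0.25), when replicate numbers were blocked (-0.18), and when replicate 1 of pwr-2 was left out (-0.24). The difference between the mutants was 0.87 (SE 0.07), higher in pwr-2, and ranged from 0.81 to 0.94 over the alternatives, in all of which it was called.

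YSL2, a transporter of the plasma membrane in vein-associated cells, was the 1 gene called higher in a mutant. It had 83, 79.1 and 69.4 CPM in pwr-2, 64.3, 64.5 and 62.8 CPM in hda9-1, and 63.4, 62.7 and 57.5 CPM in WT. All pwr-2 libraries lay above all others, while hda9-1 and WT overlapped. Its log2 fold change was 0.33 (SE 0.07) in pwr-2, called higher, and 0.06 (SE 0.07) in hda9-1, not called. With upper-quartile factors the hda9-1 value was -0.02. Between pwr-2 and hda9-1 it was 0.27 (SE 0.07), not called, and called without replicate 3 of pwr-2 (0.35).

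YSL3, the close partner of YSL1, had 54.4, 64.9 and 62 CPM in pwr-2, 72.5, 66 and 71.6 CPM in hda9-1, and 68.8, 62.7 and 62.1 CPM in WT. Both mutants overlapped WT, and all pwr-2 libraries lay below all hda9-1 libraries. No call was made in any comparison: the log2 fold change was -0.09 (SE 0.07) in pwr-2, 0.11 (SE 0.07) in hda9-1 and -0.21 (SE 0.07) in pwr-2 against hda9-1. The 3 transporters together had 177 ± 8.66 CPM in pwr-2, 155 ± 2.49 CPM in hda9-1 and 170 ± 7.39 CPM in WT. That was 104% of the WT sum in pwr-2 and 91.4% in hda9-1. Of the transporter level per kb of exon, the YSL1 share was 21.3 ± 0.976% in pwr-2, 13.4 ± 0.681% in hda9-1 and 25.5 ± 0.493% in WT. The YSL2 share was 48.7 ± 2.33% in pwr-2, 46.6 ± 0.925% in hda9-1 and 40.8 ± 0.942% in WT.

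**Figure D2:**
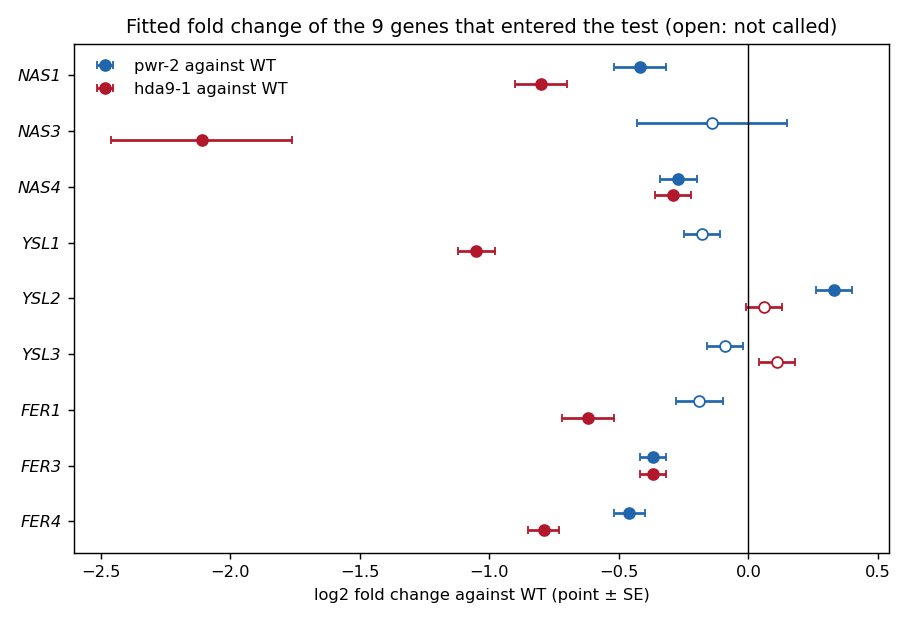
Log2 fold change against WT (horizontal, point ± SE of the fit) of the 9 genes that entered the test, pwr-2 above hda9-1 in each row; filled points were called and open points were not. NAS3 and YSL1 lie far to the left in hda9-1 and near 0 in pwr-2, whereas NAS4 and FER3 have nearly the same value in both mutants.

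FER3, a plastid ferritin, had 60.2, 56.1 and 56.4 CPM in pwr-2, 57.2, 58.3 and 56.7 CPM in hda9-1, and 74.8, 73.4 and 74.4 CPM in WT. The mutant groups overlapped each other and stood well below the WT libraries. The log2 fold change was -0.37 (SE 0.05) in pwr-2 and -0.37 (SE 0.05) in hda9-1, both called lower. FER4, found in plastids and mitochondria, had 45.4, 42.2 and 44.2 CPM in pwr-2, 34.5, 33.1 and 37.7 CPM in hda9-1, and 58.2, 59.2 and 63.9 CPM in WT. The 3 groups did not overlap, with hda9-1 lowest. FER4 had a log2 fold change of -0.46 (SE 0.06) in pwr-2 and -0.79 (SE 0.06) in hda9-1, both called lower. Between pwr-2 and hda9-1 it was 0.33 (SE 0.07), not called, and called with upper-quartile factors, with loess offsets, without the filter on low counts and without replicate 3 of WT.

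FER1, the ferritin described as most responsive to iron in leaves, had 98.2, 77.2 and 72.5 CPM in pwr-2, 65.2, 56.9 and 62 CPM in hda9-1, and 93.3, 91.8 and 97.1 CPM in WT. All hda9-1 libraries lay below all others, and replicate 1 of pwr-2 lay above WT while its other replicates lay below. FER1 had a log2 fold change of -0.19 (SE 0.09) in pwr-2, not called, and -0.62 (SE 0.10) in hda9-1, called lower. Without replicate 1 of pwr-2 its value there was -0.33 and was called, and without replicate 3 it was -0.10. Replicate 1 was the highest pwr-2 library for 7 of the 9 genes and had 102 CPM of ribosomal RNA genes, against 60.7 CPM or less in the other pwr-2 libraries, and the part of this in the result was not tested. The fold of 0.43 (SE 0.10) between pwr-2 and hda9-1 was not called, but was under DESeq2 (0.43) and without replicate 3 of pwr-2 (0.52).

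The FER1 counts have a limit of their own. The long noncoding RNA gene AT5G01595 lies on the opposite strand across FER1 (chr5:226972-229286) without sharing annotated exon bases with it. It had 821, 739 and 654 counts in pwr-2, 642, 533 and 389 in hda9-1, and 1010, 1092 and 840 in WT, which exceeded the FER1 count in every library by 11 to 31. The ratio of its count to that of FER1 was 1.02 to 1.04. AT5G01595 had a log2 fold change of -0.18 (SE 0.09) in pwr-2, not called, and -0.60 (SE 0.10) in hda9-1, called lower. The libraries were stranded, but whether strand was used in counting is not given in the sources used here. The exons used in counting are not given either. Whether the same reads were counted for FER1 and for AT5G01595 therefore cannot be told.

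The 3 ferritins together had 184 ± 17.1 CPM in pwr-2, 154 ± 4.79 CPM in hda9-1 and 229 ± 5.88 CPM in WT. That was 80.5% of the WT sum in pwr-2 and 67.3% in hda9-1. Every mutant library had a lower ferritin sum than every WT library. The highest pwr-2 sum was 204 CPM and the lowest WT sum was 224 CPM.

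Scaled to exon length, the ferritins had the 3 highest means of the 10 transcripts in each genotype. In WT the order was FER1 at 66.2 ± 1.92 CPM per kb, FER3 at 58.1 ± 0.54, FER4 at 48.2 ± 2.44, NAS1 at 30.2 ± 2.4, NAS4 at 26.1 ± 1.37, YSL2 at 25.7 ± 1.35, YSL3 at 21.2 ± 1.22, YSL1 at 16.1 ± 0.41 and NAS3 at 10.6 ± 1.31 CPM per kb, with NAS2 last (SD, n = 3). The libraries of NAS1 and NAS4, and of NAS4 and YSL2, overlapped, and the other neighbours in that order did not. In hda9-1, FER3 (45 ± 0.651 CPM per kb) and FER1 (43.2 ± 2.94) overlapped at the top, YSL2 and YSL3 stood above NAS1, and YSL1 and NAS3 ended at 7.75 ± 0.308 and 2.63 ± 1.64 CPM per kb. In pwr-2, FER1 led at 58.1 ± 9.65 CPM per kb and YSL2 (32.4 ± 2.94) overlapped FER4 (35.1 ± 1.28).

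**Figure D3:**
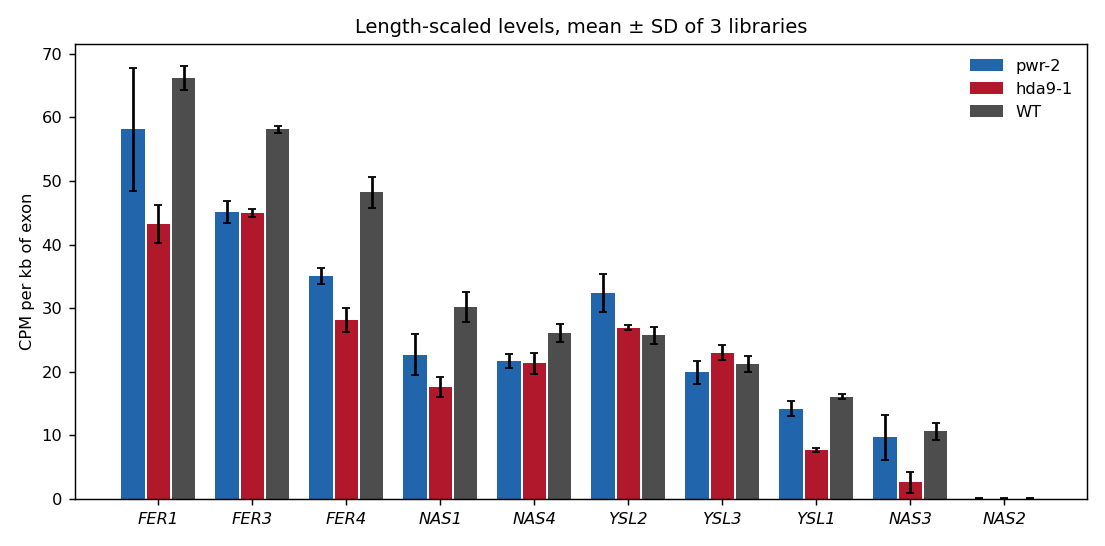
Levels in CPM per kb of exon (vertical, linear, from 0) of the 10 genes in the order of their WT level; bars are means of 3 libraries and error bars are SD, in pwr-2, hda9-1 and WT from left to right. The ferritins are the tallest in every genotype, and NAS2 is at the bottom with 2 counts or fewer in any library.

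In terms of whole groups of libraries, 5 of the 9 genes were lower in all pwr-2 than in all WT libraries (24.7% of all tested genes were) and 1 was higher (25.6%). In hda9-1, 7 of 9 were lower in all libraries (23% of all tested genes). Between the mutants, 6 of 9 were higher in all pwr-2 than in all hda9-1 libraries (9.16%) and 1 was lower (8.7%). The 6 were NAS1, NAS3, YSL1, YSL2, FER1 and FER4, and YSL3 was the one that was lower. NAS4 and FER3, whose level was nearly the same in both mutants, overlapped.

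The genes whose log2 CPM ran most alike over the 9 libraries were sought for the gene of each family with the highest mean CPM over the 9 libraries, among 8382 named genes. For FER1 they were ELIP1, an early light-induced protein of the thylakoid (Pearson r = 0.979), UGT76E11 (0.979) and UGT71B1 (0.977), both glycosyltransferases. For YSL2 they were the cytochrome P450 CYP71B4 (0.955), AMSH3 (0.949), a deubiquitinating enzyme, and CSDP1 (0.943), a cold shock domain protein. For NAS4 they were PUP11 of the purine permease family (0.959), WAG1, a protein kinase of auxin transport (0.95), and CYP84A4 (0.945). The 9 points share the genotype differences and the library sizes, and these values are descriptive.

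Other metal genes were listed by role, 88 in all and 78 of them tested, also with results of these libraries known. In pwr-2 against WT 18 were called higher and 11 lower, with a median log2 fold change of 0.04, while 31.4% of all tested genes were called. In hda9-1 22 were called higher and 16 lower, with a median of 0.03, while 34.2% of all tested genes were called. These shares are the background of each list below. Of the calls, 13 of 29 in pwr-2 were made in all 16 alternatives and 23 of 38 in hda9-1 in all 17. The adjusted p-values below are those of edgeR with the Benjamini-Hochberg method over all tested genes. Of the 6 remaining YSL and ferritin genes, 2 were called higher and 1 lower in pwr-2, and 2 higher and 3 lower in hda9-1. YSL4, YSL6 and YSL5 were called in both mutants, and YSL8 and FER2, the seed ferritin, in hda9-1. YSL4, placed in internal membranes, had log2 fold changes of -0.30 in pwr-2 (SE 0.07, adjusted p = 0.0083) and -0.22 in hda9-1 (SE 0.07, adjusted p = 0.032). YSL6 was higher by 0.28 in pwr-2 (SE 0.06, adjusted p = 0.0064) and 0.21 in hda9-1 (SE 0.06, adjusted p = 0.024). Its hda9-1 call ended with upper-quartile factors, with loess offsets, without replicate 2 of hda9-1 and without replicate 1 of WT. YSL5 was higher by 0.33 in pwr-2 and 0.36 in hda9-1, and 27.4% of its exon bases are shared with other genes. FER2 had 2.83, 2.26 and 1.14 CPM in pwr-2, 1.37, 1.77 and 0.656 CPM in hda9-1, and 3.03, 2.94 and 2.83 CPM in WT. On the log2 scale it was -0.51 in pwr-2 (SE 0.33, adjusted p = 0.26) and -1.15 in hda9-1 (SE 0.36, adjusted p = 0.029). YSL8 was at -0.18 in pwr-2 (SE 0.07, adjusted p = 0.066) and -0.22 in hda9-1 (SE 0.07, adjusted p = 0.032), and 17.9% of its exon bases are shared with AT1G48380. The 3 lower calls in hda9-1 (YSL4, YSL8 and FER2) all ended under DESeq2, without replicate 1 of hda9-1 and without replicate 3 of WT, while the calls of YSL5 held in all alternatives in both mutants.

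Of 20 regulators of the iron deficiency response, 6 were called higher and 3 lower in pwr-2 (median log2 fold change 0.06), and 10 higher and 3 lower in hda9-1 (median 0.30). Of the 4 subgroup Ib bHLH genes, whose transcripts are known to rise when iron is short, bHLH38, bHLH100 and bHLH101 were called higher in both mutants and bHLH39 in hda9-1. bHLH39 had 5.54, 4.08 and 4.21 CPM in pwr-2, 11.9, 12.2 and 12.3 CPM in hda9-1, and 1.14, 1.64 and 4.49 CPM in WT. Its log2 fold change was 0.99 (SE 0.37, adjusted p = 0.059) in pwr-2, which was called in 4 of 16 alternatives, and 2.38 (SE 0.34, adjusted p = 3e-04) in hda9-1. In hda9-1 all 4 calls held in every alternative. bHLH38 had 4.43, 6.88 and 4.67 CPM in pwr-2, 15.5, 14.4 and 15.4 CPM in hda9-1, and 1.99, 3.46 and 3.54 CPM in WT. The hda9-1 libraries were highest and WT lowest, with no overlap. Its log2 fold change was 0.84 (SE 0.24, adjusted p = 0.02) in pwr-2 and 2.33 (SE 0.22, adjusted p = 1.6e-05) in hda9-1, and 35.7% of its exon bases are shared with AT3G56960. bHLH100 was higher by 0.70 in pwr-2 (SE 0.22, adjusted p = 0.03) and by 1.95 in hda9-1 (SE 0.20, adjusted p = 3.2e-05), and bHLH101 by 0.70 in pwr-2 (SE 0.14, adjusted p = 0.0029) and by 1.36 in hda9-1 (SE 0.13, adjusted p = 2e-05). In pwr-2 the calls of bHLH38 and bHLH100 ended without replicate 2 of pwr-2 and without replicate 1 of WT, that of bHLH100 also without replicate 3 of pwr-2 or replicate 2 of WT. URI (bHLH121), which acts upstream of them, was higher by 0.39 in pwr-2 and 0.59 in hda9-1, and BTS, a ubiquitin ligase that restrains the response, by 0.45 in pwr-2 and 0.65 in hda9-1. FIT, the root regulator of iron uptake, had 1.6, 2.04 and 1.25 CPM in pwr-2, 1.58, 2.32 and 1.15 CPM in hda9-1, and 5.5, 4.76 and 4.72 CPM in WT. FIT was called lower in both, at -1.60 in pwr-2 (SE 0.26, adjusted p = 0.0011) and -1.52 in hda9-1 (SE 0.26, adjusted p = 0.0012). Of 8 genes of root iron uptake 4 were tested, and the coumarin enzyme F6'H1 (listed as F6H1) was lower in both mutants, with -1.65 in pwr-2 (SE 0.43, adjusted p = 0.013) and -1.45 in hda9-1 (SE 0.42, adjusted p = 0.021). FRO2, the root ferric reductase, was called lower in hda9-1 (-0.74, SE 0.26, adjusted p = 0.045) and not called in pwr-2 (-0.45, SE 0.25, adjusted p = 0.19). Both genes had low counts. F6'H1 had 6, 15 and 17 counts in pwr-2, 24, 15 and 3 in hda9-1, and 37, 45 and 55 in WT. FRO2 had 23, 20 and 23 counts in pwr-2, 24, 16 and 11 in hda9-1, and 29, 49 and 28 in WT. The FRO2 call was made in only 5 of 17 alternatives and ended under the replicate block. That of F6'H1 ended in pwr-2 without its replicate 1, and in hda9-1 with loess offsets, without its replicate 2 and without replicate 3 of WT.

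Of the genes that move metals inside the plant, 5 of 20 were called higher and 3 lower in pwr-2, and 5 higher and 5 lower in hda9-1. FRO3, a mitochondrial ferric reductase, was higher in pwr-2 by 0.39 (SE 0.08, adjusted p = 0.0047) and in hda9-1 by 0.82 (SE 0.08, adjusted p = 2.4e-05). OPT3, which loads iron into the phloem, was higher by 0.31 (adjusted p = 0.0088) in pwr-2 and 0.40 (adjusted p = 0.0019) in hda9-1. ZIF1, which moves nicotianamine into the vacuole, was higher in pwr-2 by 0.21 (SE 0.06, adjusted p = 0.02) and in hda9-1 by 0.47 (SE 0.06, adjusted p = 0.00016). NRAMP4, which releases iron from vacuoles, was higher by 0.19 in pwr-2 and 0.21 in hda9-1, and both calls ended with upper-quartile factors and with loess offsets. NEET, an iron-sulphur protein of plastids and mitochondria, was lower in both, at -0.24 in pwr-2 (adjusted p = 0.012) and -0.62 in hda9-1 (adjusted p = 3.3e-05). Without replicate 2 of pwr-2 the pwr-2 calls of ZIF1, NRAMP4 and NEET ended, without replicate 1 of WT those of ZIF1 and NEET, and without replicate 2 of WT those of ZIF1 and NRAMP4 and the hda9-1 call of NRAMP4. Between the mutants, bHLH38, bHLH100, bHLH101 and FRO3 were called lower in pwr-2 than in hda9-1 and NEET and FRO7, a plastid ferric reductase, higher, 6 of the 78, where 0.421% of all tested genes were called. None of these 6 calls was made in all 16 alternatives, and all 6 ended without replicate 1 or replicate 2 of hda9-1 and without replicate 1 of pwr-2. FRO7 shares 14.5% of its 50-base stretches with its neighbour FRO6.

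In the zinc list 2 of 10 tested genes were called higher and 1 lower in pwr-2, and 1 higher and 2 lower in hda9-1. The zinc and iron transporter IRT3 was lower, with -0.44 in pwr-2 (adjusted p = 0.0042) and -0.69 in hda9-1 (adjusted p = 0.00024). MTP1, which takes zinc into vacuoles, was higher by 0.24 in pwr-2 and 0.25 in hda9-1. The transporter ZIP5 was called higher in pwr-2 (0.45, adjusted p = 0.03) and was at -0.12 in hda9-1 (adjusted p = 0.56), and the zinc pump HMA2 was called lower in hda9-1 (-0.27, adjusted p = 0.02) and was at -0.12 in pwr-2 (adjusted p = 0.24). The call of ZIP5 was made in 11 of 16 alternatives and that of HMA2 in 12 of 17, and both ended without replicate 1 or replicate 2 of WT. For copper and superoxide dismutases 2 of 9 were higher and 1 lower in each mutant. The higher ones were FRO4, a copper reductase, at 0.54 in pwr-2 and 0.45 in hda9-1, and SPL7, the copper regulator, at 0.15 in pwr-2 and 0.13 in hda9-1. The SPL7 calls were made in 9 of 16 alternatives in pwr-2 and in 3 of 17 in hda9-1, where the replicate block ended it, and the FRO4 call in hda9-1 ended without its replicate 2 and without replicate 1 of WT. The lower one was FSD2, an iron superoxide dismutase of plastids, with -0.52 in pwr-2 (adjusted p = 0.00027) and -0.35 in hda9-1 (adjusted p = 0.0023). In the cycle that supplies S-adenosylmethionine to nicotianamine synthase and removes its by-product, 5 of 7 genes were not called in pwr-2 and 5 of 7 in hda9-1. MAT4, an S-adenosylmethionine synthetase, was higher by 0.28 in pwr-2 and 0.37 in hda9-1, and 29.7% of its exon bases are shared. Of the methylthioadenosine nucleosidases, MTN1 was called higher in hda9-1 (0.23, adjusted p = 0.011) and not in pwr-2 (0.14, adjusted p = 0.099), and MTN2 was called lower in pwr-2 (-0.42, adjusted p = 0.0076) and not in hda9-1 (-0.19, adjusted p = 0.15). The phosphate regulators PHR1 and PHL1 were not called in either mutant, but PHR1 in hda9-1 (0.15, adjusted p = 0.055) was called higher under the replicate block and without replicate 1 of hda9-1.

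**Figure D4:**
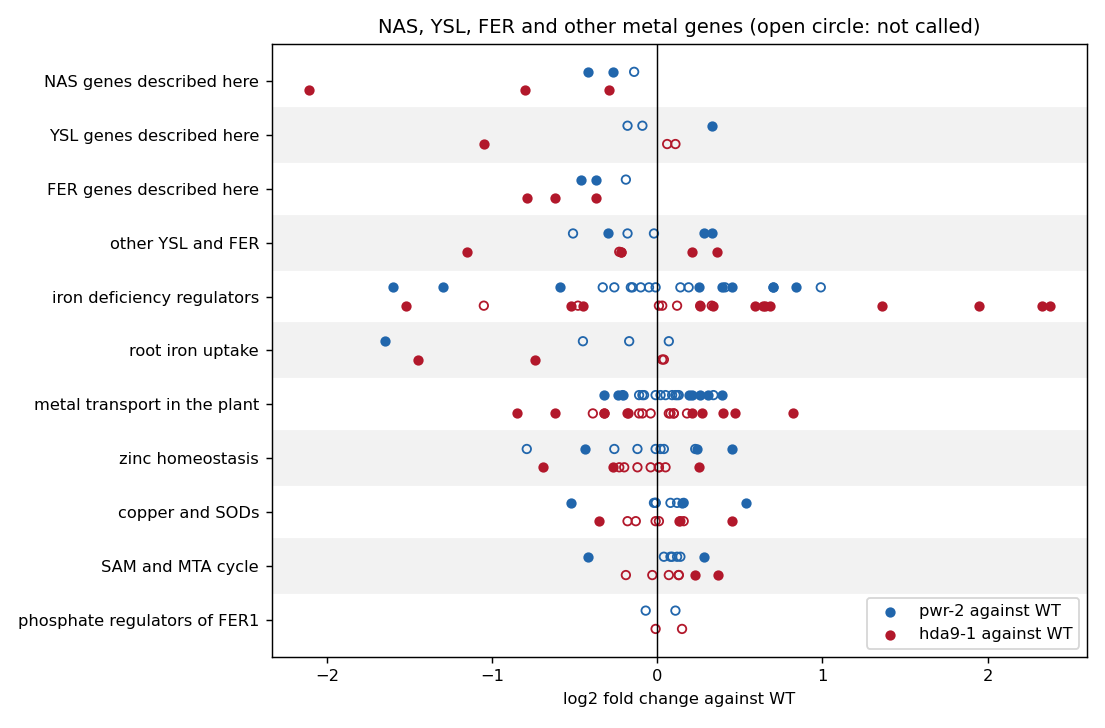
Log2 fold change against WT (horizontal) of each tested gene of the NAS, YSL and ferritin families described here and of the other metal lists, 1 circle per gene, pwr-2 above hda9-1; filled circles were called. The 3 tested NAS genes and the 3 ferritins lie left of 0 in both mutants, whereas the iron deficiency regulators reach from -1.60 in pwr-2 to 2.38 in hda9-1.

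Markers of tissues that express these genes were set beside them. Vascular markers (SUC2, APL, XCP1, XCP2) summed to 364 to 385 CPM in pwr-2, 332 to 427 CPM in hda9-1 and 289 to 322 CPM in WT, and SUC2 and XCP2, 2 of the 4, were called higher in both mutants. The leaf mesophyll sum of 4 markers was 1590 to 1680 CPM in pwr-2, 1550 to 1780 CPM in hda9-1 and 1460 to 1510 CPM in WT. Whether counts of abundant genes were reduced before deposit is not given, so this sum may not follow mesophyll content. Of the mesophyll markers, LHCB2.1 alone was called higher in pwr-2 (log2 fold change 0.19), and none was called in hda9-1. The root sum of 9 markers was 123 to 133 CPM in pwr-2, 118 to 119 CPM in hda9-1 and 116 to 124 CPM in WT, carried by SCR and SHR, while COBL9, EXPA7, RHD6, PLT1 and PLT2 averaged 0.717 CPM or less in every group, with EXPA7 at 0 in pwr-2 and RHD6 and PLT2 at 0 in hda9-1. Of the other root markers, WOX5 averaged 1.25 ± 0.241 CPM in pwr-2, 1.37 ± 0.356 CPM in hda9-1 and 2.03 ± 0.0786 CPM in WT, and CASP1 averaged 2.08 ± 0.544 CPM in pwr-2, 2.25 ± 0.648 CPM in hda9-1 and 1.89 ± 0.754 CPM in WT (SD, n = 3), both above the floor and not called. All WOX5 libraries of both mutants lay below all WT libraries, as for 24.7% of all tested genes in pwr-2 and 23% in hda9-1. Those of CASP1 overlapped. The root sum follows SCR and SHR and says little about the remaining root markers. The seed sum of 3 markers was 0.43 to 2.46 CPM in pwr-2, 0.492 to 2.98 CPM in hda9-1 and 1.14 to 3.03 CPM in WT, with AT2S1 at 0 in pwr-2 and WT. The part of these differences in the results above was not tested.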

How the data were processed

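PolyA RNA of whole seedlings was sequenced in stranded libraries, 3 per genotype, per the labels' protocols. The deposited values are whole-number read counts per gene, and the submitters' processing notes name HISAT2 and TAIR10; the counting tool, its strand setting and its handling of duplicates and of very abundant genes are not given in the sources used here. RefSeq's TAIR10.1 gave names, exon lengths and promoters, and 28932 of the 29420 genes matched it. Its exons may differ from those used in counting, which bears on the levels per kb and on the shared exon bases. No count was present for 4396 genes.

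The total per library was 6450661 to 11150773 counts, and the largest count of any gene was 8855. Counting floors (3 counts) cover counting error only, since PCR copies are not independent molecules. CPM used TMM-scaled library sizes; log2 CPM took a prior count of 2. Groups were compared with edgeR 4.0.16 in R 4.3.3 (filterByExpr, TMM, quasi-likelihood F test, 1 model over 9 libraries with genotype as its term, Benjamini-Hochberg over 20171 genes, called under 0.05). The SE was obtained from each fitted log2 fold change and its F statistic (size of the change over the root of F). The edgeR steps were run on simulated counts with few changed genes, a common spread for all genes and no pairing of replicates. These settings differ from the data, so the run checks the code and not the calls. The upstream window of 1 of the 10 genes is not reported here.

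Replicate numbers of hda9-1 and WT paired the libraries by their deviations from the group means (r = 0.36, 0.45 and 0.46), and the block changed no call of the 9 genes in that comparison. Replicate pairs differed beyond sampling noise (chi-square per degree of freedom 1.61 to 4.82). Alternatives were RLE and upper-quartile factors, loess offsets, no filter, DESeq2 1.42.0, the replicate block, only the groups compared, and each library left out; the block with only hda9-1 and WT was added after seeing the data. The 10 genes and the other lists were chosen with earlier results of these data known. Named are all 10 genes, HDA9 and PWR, from each other list up to 4 called genes with the smallest adjusted p per mutant, and the 3 genes most alike (Pearson r of log2 CPM, mean log2 CPM of at least 1) to the gene of each family with the highest mean CPM; bHLH39 and YSL8 were added after their values were seen.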

Additional observations from a re-analysis of the deposited data

How the results depend on the processing

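In hda9-1 against WT, the same 7 genes were called lower in every alternative, including the replicate block (6901 genes called in all, against 6897 without it) and the block with only hda9-1 and WT (9472 genes). Leaving out 1 library at a time gave 4932 to 7137 genes, with 30 to 36 of the other metal genes (38 with all libraries). In pwr-2 against WT, 4 to 7 of the 9 genes were called and 3917 to 7581 genes in all when 1 library was left out, with 18 to 32 of the other metal genes; the counts furthest from 6326 were 3917 without replicate 2 of pwr-2 and 4126 without replicate 1 of WT. Between pwr-2 and hda9-1, 1 to 4 of the 9 genes, 0 to 8 of the other metal genes and 9 to 252 genes in all were called when 1 library was left out. The single counts were 10, 11 and 49 without replicates 1, 2 and 3 of hda9-1, 9, 11 and 252 without those of pwr-2, and 97, 27 and 148 without those of WT. There 85 genes were called with all libraries, 158 with loess offsets, 179 without the filter on low counts and 184 under DESeq2. The replicate block gave 6251 genes in pwr-2 against WT and 113 between the mutants. Numbers did not pair the pwr-2 libraries (r of -0.12, -0.01 and -0.13 with WT, and -0.22, -0.19 and -0.24 with hda9-1). Their higher r were across numbers. Replicates 2, 3 and 1 of pwr-2 gave 0.17, 0.17 and 0.23 with replicates 1, 2 and 3 of WT, in that order. With replicates 1, 2 and 3 of hda9-1 they gave 0.2, 0.23 and 0.23. The labels state no batch, and no block by such sets was run. In these comparisons the block by number changed 1 call of the 9 genes, that of YSL1 in pwr-2 against WT. Upper-quartile factors moved the median of all genes to -0.08 in both mutants and lowered the share of higher calls. No called value changed its sign in these alternatives, but some uncalled values did. The NAS3 value of pwr-2 against WT was 0.12 without replicate 3 of pwr-2 and 0.08 with loess offsets. The YSL2 value of hda9-1 against WT was -0.02 with upper-quartile factors and -0.01 with loess offsets. Between pwr-2 and hda9-1, NAS4 ranged from -0.04 to 0.08 and FER3 from -0.03 to 0.02. The cause of these changes was not tested. Depth limits NAS2, which is under the floor, and NAS3 in hda9-1.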

Other observations

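IRT1, the root iron importer, had 0, 2 and 0 counts in pwr-2, 25, 0 and 0 counts in hda9-1, and 0, 0 and 0 counts in WT, and did not enter the test. It was named after its values were seen. The single hda9-1 library with IRT1 counts, replicate 1, was not the one with the high ribosomal RNA share. In hda9-1 replicates 1, 2 and 3, the root marker PLT1 had 6, 0 and 0 counts. The root uptake genes CYP82C4 and IRT2 had 4, 0 and 0 and 1, 0 and 0. FIT with 15, 21 and 7 counts and CASP1 with 15, 26 and 14 were highest in replicate 2. These genes were also picked after their values were seen, and the part of root material in the IRT1 counts was not tested.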
